A study of Homo sapiens with 6 samples.

Results

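Long noncoding RNAs with antisense (AS) or long intergenic (LINC) gene symbols were examined in Caki2 cells that carried either an empty vector or PBRM1. A gene was counted as a member when its symbol was LINC followed by digits or ended in -AS and a digit, or was MALAT1, NEAT1, H19 or MEG3, and when its normalized count was at least 10 in at least 3 of the 6 libraries. Of 25369 genes in the deposited tables, 1334 carried such a symbol and 309 passed this level: 206 antisense genes of 719, 101 LINC genes of 611, and MALAT1 and NEAT1. Another 461 of the matched symbols had 0 reads in every library, and 564 had reads but stayed under the level. Because expression itself chose the members, their being detected is no result. Near the limit, the third-highest normalized count was 10.07 for ITGB2-AS1 and GAS6-AS2, which were kept, and 9.75 for SCOC-AS1, which was not.

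Caki2 is a human clear cell renal cell carcinoma (ccRCC) line that lacks PBRM1 protein. PBRM1 is a subunit of the PBAF form of the SWI/SNF chromatin remodeling complex. The 3 Caki2+Vector libraries came from cells carrying an empty doxycycline-inducible lentiviral vector, and the 3 Caki2+PBRM1 libraries from cells carrying the same kind of vector with full-length PBRM1. All 6 cultures received doxycycline at 2 µg/ml, so the drug is common to both groups, and each group rests on 1 transduced, drug-selected line. The 3 libraries of a group are described as biological replicates, and p-values measure the spread between them.

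The sequenced libraries held 7312955 to 10835355 reads on genes. PBRM1 itself, which checks the construct, had normalized counts of 195.0, 182.3 and 182.2 in Caki2+Vector and of 2431.7, 2520.7 and 2682.4 in Caki2+PBRM1. Its RNA was thus present but lower in the cells with the empty vector. Caki2+Vector A stood apart from its group: the chi-square per degree of freedom between replicates was 3.09 and 2.84 for pairs with this library, 1.34 for Caki2+Vector B against C, and 1.19 to 1.22 among the Caki2+PBRM1 libraries. Of 12 renal epithelial and carcinoma markers, 10 could be tested, of which VIM, GGT1 and MME rose and KRT8 and KRT18 fell; the summed level was 35756.5 to 36878.1 without PBRM1 and 36016.6 to 36964.4 with it. In the same order, summed fibroblast markers were 104.3 to 111.5 and 102.4 to 128.0, immune markers 4.7 to 10.4 and 4.3 to 9.2, and endothelial markers 0.9 to 4.7 and 3.4 to 6.2, while CD3E, CDH5, HBA1 and HBB were at 0 in every library.

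Long noncoding RNAs are transcripts that are often spliced, capped and polyadenylated like mRNA but are not known to be translated into a long protein. An antisense RNA is read from the strand opposite a protein-coding gene, its partner. It may overlap the partner's exons or start close to the partner's start, an arrangement called head to head here. Intergenic RNAs lie apart from coding genes, and a few symbols of this class have since been found to encode short proteins. Chromatin remodeling complexes of the SWI/SNF family act at the promoters and enhancers from which such RNAs also start. Here RNA had been enriched by its poly(A) tail, so MALAT1 and the long isoform of NEAT1, which lack an ordinary poly(A) tail, were measured only as far as this enrichment retained them.

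For 85 pairs the antisense RNA and its coding partner lay on opposite strands with starts within 1 kb of each other, counted as head to head. Exons overlapped in 41 of them, so those annotated genes did not simply run apart. In the other 44 the annotated exons of the pair did not overlap, so that a read in them fits 1 gene of the pair even without its strand. Overlap with genes outside the pair was not checked, and the reads had been counted on another annotation, from UCSC. Among those 44 pairs, 4 antisense RNAs passed the test between the groups. The stretch from which each of these 4 pairs is transcribed in both directions is shown because it places the measured RNAs: capitals mark the bases from one annotated start to the other, with 30 bases of flank in lower case, on the plus strand of GRCh37 with starts from GENCODE.
SAP30L-AS1 and SAP30L, chr5:153825380-153825587: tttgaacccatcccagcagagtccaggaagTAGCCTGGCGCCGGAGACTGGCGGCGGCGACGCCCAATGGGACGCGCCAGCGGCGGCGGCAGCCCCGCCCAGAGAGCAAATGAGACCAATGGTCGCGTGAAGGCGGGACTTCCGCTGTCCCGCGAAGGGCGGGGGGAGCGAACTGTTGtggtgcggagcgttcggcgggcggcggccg
RNASEH1-AS1 and RNASEH1, chr2:3605893-3606039: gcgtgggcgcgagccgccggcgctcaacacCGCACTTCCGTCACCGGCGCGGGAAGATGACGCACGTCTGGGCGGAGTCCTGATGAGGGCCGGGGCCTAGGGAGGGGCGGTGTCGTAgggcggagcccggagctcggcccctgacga
NUP50-AS1 and NUP50, chr22:45559662-45559836: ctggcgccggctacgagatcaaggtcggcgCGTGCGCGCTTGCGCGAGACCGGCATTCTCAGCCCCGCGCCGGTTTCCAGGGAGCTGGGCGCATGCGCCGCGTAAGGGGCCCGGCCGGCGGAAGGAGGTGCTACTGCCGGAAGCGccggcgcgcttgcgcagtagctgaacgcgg
FLVCR1-AS1 and FLVCR1, chr1:213031451-213031647: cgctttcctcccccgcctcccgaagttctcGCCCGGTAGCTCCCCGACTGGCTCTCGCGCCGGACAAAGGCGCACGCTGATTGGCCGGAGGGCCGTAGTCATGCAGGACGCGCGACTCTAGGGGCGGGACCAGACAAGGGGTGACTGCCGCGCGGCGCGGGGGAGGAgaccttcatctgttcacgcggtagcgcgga

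In these windows the shared stretch was 87 bases for RNASEH1-AS1, 115 for NUP50-AS1, 137 for FLVCR1-AS1 and 148 for SAP30L-AS1. All 4 windows were rich in G and C, at 69.5 to 74.1%, with 21 to 29 CG dinucleotides. Over 35116 RefSeq promoter windows of the same lengths (GRCh38), the median was 59.4 to 60.5% and 7 to 10 CG dinucleotides. Those promoter windows were not limited to head-to-head starts, and the windows of the other head-to-head pairs were not measured. The letters GGGCGG, read on either strand, occurred in 3 of the 4 windows and in 35.8 to 40.5% of the promoter windows. The letters CCAAT occurred in the FLVCR1-AS1 and SAP30L-AS1 windows and in 22.1 to 27.9% of the promoter windows. These matches describe the sequence and were not tested for binding. SAP30L-AS1 rose with its partner, while RNASEH1-AS1, NUP50-AS1 and FLVCR1-AS1 fell with no call for theirs, as given below with their counts.

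With PBRM1 re-expression, 20 of the 309 lncRNAs were upregulated (6.47%) and 19 were downregulated (6.15%), by limma on log2(normalized count + 1) with a Benjamini-Hochberg adjusted p under 0.05 over all 13303 genes tested. Over all tested genes the shares were 16.2% upregulated and 13.0% downregulated, and 29.2% in either direction. The antisense class held 7 upregulated and 10 downregulated members of 206, and the LINC class 13 and 9 of 101. The 3 libraries of one group lay wholly above those of the other for 32 lncRNAs with Caki2+PBRM1 higher (22.1% of all tested genes) and for 47 with Caki2+PBRM1 lower (19.6% of all tested genes; 41.7% of them separated in either direction). Of those 47, 36 were antisense RNAs and 11 were LINC genes, and of those 32, 12 and 20. The median log2 fold change was -0.09 for antisense members, -0.02 for LINC members and -0.004 over all tested genes.

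**Figure D1:**
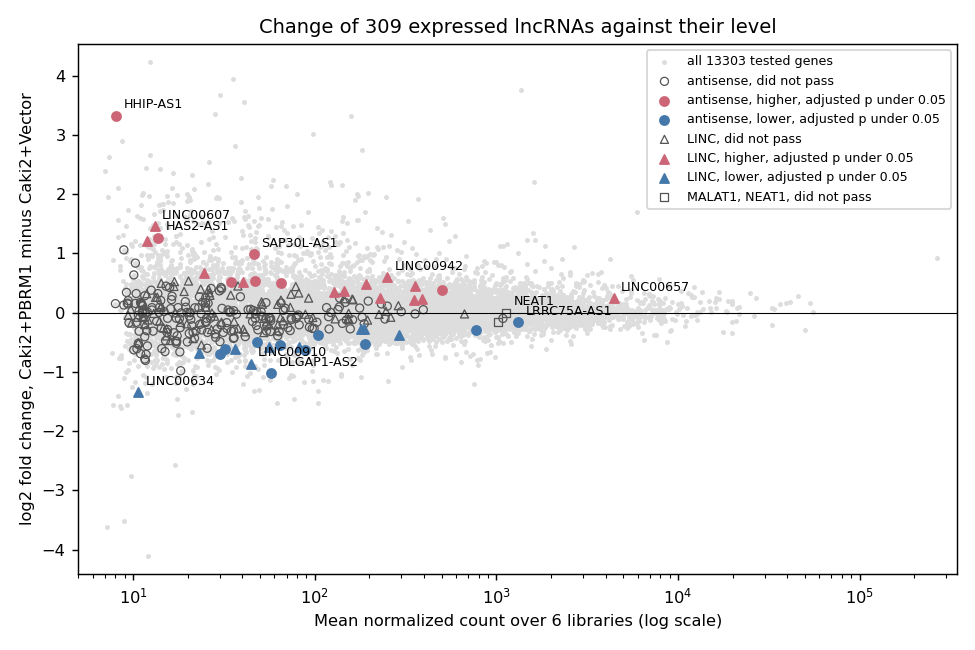
Log2 fold change of each lncRNA (Caki2+PBRM1 minus Caki2+Vector, vertical axis) against its mean normalized count over 6 libraries (horizontal log axis); circles are antisense genes, triangles LINC genes and squares MALAT1 and NEAT1, filled red or blue where the adjusted p was under 0.05, over all 13303 tested genes in grey. Most lncRNAs lie at low counts (median 30.1, against 263.6 for all genes), and those that passed the test at higher counts had small changes, such as 0.24 for LINC00657.

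Most of these RNAs were measured at low counts. Their median normalized count was 30.1, against 263.6 over all tested genes, and the SE of their log2 fold changes had a median of 0.22, against 0.08. The part of level in the number of calls was not tested. Of 199 lncRNAs with a mean under 50, 9 rose and 7 fell, where 12.9% and 5.94% of all tested genes of that level did. From 50 to under 200, 4 of 86 rose and 9 fell, against 13.5% and 9.55%. Among the 24 lncRNAs with a mean of 200 or more, 7 rose (29.2%) and 3 fell (12.5%), against 18.4% and 16.7%. Of the 12 LINC genes at that level, 6 rose and 1 fell. A log2 fold change beyond 1 in either direction was measured for 7 lncRNAs, of which 6 passed the test; without the 2 of them that were members only through their higher group, HHIP-AS1 and LINC00634, these were 5 and 4.

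**Figure D2:**
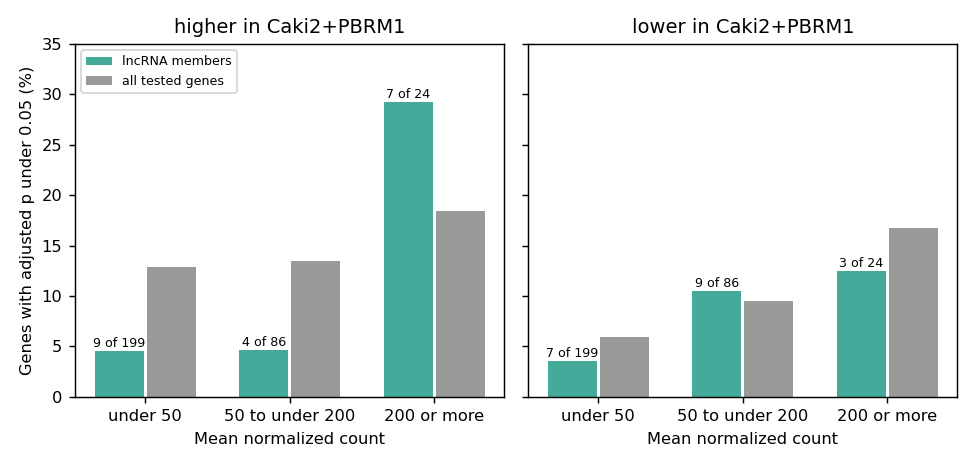
Share of genes (percent, vertical axis) with an adjusted p under 0.05 in each direction, by mean normalized count (horizontal axis), for the lncRNAs (green, with counts above the bars) and for all tested genes (grey). At means under 200 a smaller share of lncRNAs than of all genes was higher in Caki2+PBRM1; at 200 or more the lncRNA bar stands on 24 genes.

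Summed over their genes, the antisense members of a Caki2+Vector library had 14032.7 to 14049.5 normalized counts, and those of a Caki2+PBRM1 library 13081.2 to 13376.1. The LINC members gave 11897.5 to 12390.2 per Caki2+Vector library and 13199.6 to 13264.5 per Caki2+PBRM1 library. Neither range overlapped the other group's, the antisense total being lower and the LINC total higher with PBRM1. The normalized total over all genes was higher with PBRM1 too, at 8704492.6 to 8808811.4 per Caki2+Vector library and 9082666.8 to 9117733.8 per Caki2+PBRM1 library. LINC00657 alone had means of 4075.2 and 4810.0 in the LINC totals. How much of the LINC difference remains apart from LINC00657 and the shift over all genes was not tested. All members together made up 0.318 to 0.333% of a Caki2+Vector library and 0.311 to 0.316% of a Caki2+PBRM1 library. In bulk libraries such as these, fewer cells expressing an RNA and less RNA per cell cannot be told apart.

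Among antisense RNAs that rose, SAP30L-AS1 changed most, apart from HAS2-AS1 and HHIP-AS1, whose group means were all under 20. Its normalized count was 29.3, 41.6 and 22.8 in Caki2+Vector and 57.4, 64.0 and 61.3 in Caki2+PBRM1 (log2 fold change 0.98, SE 0.19, limma adjusted p = 2.37e-04). The groups did not overlap. SAP30L, a component related to the Sin3A histone deacetylase complex, also rose, from 188.4, 187.1 and 166.6 to 252.4, 237.3 and 220.7 (log2 fold change 0.39, SE 0.09, limma adjusted p = 0.00123). The antisense RNA rose from 17.2 ± 4.49% to 25.8 ± 2.69% of the partner's count (SD, n = 3), and these shares did not overlap either. SAP30L-AS1 lies at chr5:153705128-153825410 on the minus strand, its start 147 bp from that of SAP30L.

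AFAP1-AS1, which has been studied in several carcinomas, overlaps part of the gene of the actin filament-associated protein AFAP1 and runs past its end. Its counts were 437.4, 423.3 and 439.9 in Caki2+Vector and 568.7, 592.0 and 534.6 in Caki2+PBRM1 (log2 fold change 0.38, SE 0.06, limma adjusted p = 1.9e-05). AFAP1 went the other way, from 613.5, 638.7 and 667.6 to 491.8, 497.7 and 432.2 (log2 fold change -0.43, SE 0.06, limma adjusted p = 3.96e-06). The count of the antisense RNA was thus 67.8 ± 3.02% of that of AFAP1 without PBRM1 and 119 ± 4.05% with it (SD, n = 3). Exons of AFAP1 cover 42.2% of the annotated exons of AFAP1-AS1, and in such overlaps reads of the partners cannot be told apart when strand is not kept.

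ZMIZ1-AS1 and FLG-AS1 rose together with their partners. The counts of ZMIZ1-AS1 were 56.8, 55.7 and 49.1 in Caki2+Vector and 73.7, 73.8 and 81.4 in Caki2+PBRM1 (log2 fold change 0.50, limma adjusted p = 0.00998). ZMIZ1, a transcriptional coregulator, rose from 1607.5, 1822.5 and 1825.4 to 2337.5, 2162.5 and 2317.3 (log2 fold change 0.38, limma adjusted p = 6.65e-07). In annotation these genes lie apart, with starts 1071 bp from each other and no shared exon. FLG-AS1 had counts of 25.6, 30.2 and 28.8 against 45.5, 37.3 and 39.4 (log2 fold change 0.52, limma adjusted p = 0.0437), and FLG, which encodes the epidermal protein filaggrin, rose by 0.45 on the log2 scale (limma adjusted p = 0.00158). Relative to their partners, ZMIZ1-AS1 stood at 3.09% and 3.36% and FLG-AS1 at 24.4% and 25.6% in Caki2+Vector and Caki2+PBRM1, with overlapping ranges.

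STARD4-AS1 rose without a call for its partner. Its counts were 38.8, 39.7 and 36.0 in Caki2+Vector and 53.1, 56.0 and 58.8 in Caki2+PBRM1 (log2 fold change 0.54, limma adjusted p = 0.0138). STARD4, a cholesterol transfer protein, had counts of 149.6, 113.4 and 139.0 against 133.2, 133.3 and 106.6, which overlapped (log2 fold change -0.11, SE 0.12, limma adjusted p = 0.556). At lower counts, HAS2-AS1 had 8.5, 10.4 and 4.8 against 22.7, 19.6 and 16.8 (log2 fold change 1.26, SE 0.32, limma adjusted p = 0.00296). Its partner HAS2, a hyaluronan synthase, stayed under the level for testing, at 2.8, 3.8 and 6.0 against 9.7, 7.1 and 15.9.

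Leaving out a single library ended some of these calls. For ZMIZ1-AS1 and STARD4-AS1 this happened without Caki2+PBRM1 C, where the limma adjusted p was 0.0627 and 0.068. FLG-AS1 lost its call without any 1 of the 6 libraries, with a limma adjusted p of up to 0.162. SAP30L-AS1, AFAP1-AS1 and HAS2-AS1 kept theirs without any 1 library, the highest adjusted p being 0.0289, for HAS2-AS1.

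DLGAP1-AS2 fell most among the antisense RNAs that passed the test. Its counts were 73.8, 86.0 and 73.1 in Caki2+Vector and 35.7, 34.7 and 42.8 in Caki2+PBRM1 (log2 fold change -1.02, SE 0.16, limma adjusted p = 1.0e-05). DLGAP1, a scaffold protein of synapses, had 18.0, 22.7 and 15.6 against 30.3, 21.3 and 24.3 and did not pass the test (log2 fold change 0.42, SE 0.24, limma adjusted p = 0.21). DLGAP1-AS2 lies at chr18:3602998-3610101 on the plus strand, inside the span of DLGAP1, and the annotated exons of the genes do not overlap. It was the more abundant of the pair in counts, at 420 ± 45.7% of DLGAP1 without PBRM1 and 152 ± 30.4% with it (SD, n = 3).

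Of the 10 antisense RNAs that fell, 6 started head to head with their partner, and none of those 6 partners passed the test. Of all 185 tested pairs, 85 were head to head. In those, 13 of 41 partners passed where exons overlapped and 12 of 44 where they did not. RNASEH1-AS1 had counts of 217.7, 233.4 and 220.5 in Caki2+Vector and of 165.7, 144.9 and 155.3 in Caki2+PBRM1 (log2 fold change -0.53, SE 0.09, limma adjusted p = 4.4e-05). RNASEH1, the nuclease that removes RNA from RNA-DNA hybrids, had 463.9, 531.9 and 487.8 against 461.4, 469.3 and 458.3 (log2 fold change -0.09, SE 0.06, limma adjusted p = 0.298). The antisense count went from 45.3 ± 1.54% to 33.6 ± 2.54% of the partner's (SD, n = 3) without overlap. In this pair, whose starts are separated by the GC-rich stretch printed above, the RNA leaving on the antisense side was lower in every Caki2+PBRM1 library while the groups overlapped for the coding RNA.

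NUP50-AS1 and FLVCR1-AS1 gave the same picture at lower counts. NUP50-AS1 had 115.5, 110.5 and 127.0 in Caki2+Vector and 82.3, 98.7 and 91.5 in Caki2+PBRM1 (log2 fold change -0.37, SE 0.12, limma adjusted p = 0.0188). NUP50, a nuclear pore protein, had a log2 fold change of -0.03 (SE 0.04, limma adjusted p = 0.621). FLVCR1-AS1 had 30.3, 46.3 and 36.0 against 22.7, 17.8 and 27.7 (log2 fold change -0.70, SE 0.22, limma adjusted p = 0.0177), and FLVCR1, a heme exporter, 0.02 (SE 0.06, limma adjusted p = 0.835). As a share of the partner, the antisense count went from 6.40% to 5.05% for NUP50-AS1 and from 8.63% to 5.17% for FLVCR1-AS1, both without overlap. Without Caki2+PBRM1 A or Caki2+Vector C the call of NUP50-AS1 was lost (limma adjusted p up to 0.0982), and without Caki2+PBRM1 B or Caki2+Vector B that of FLVCR1-AS1 (up to 0.125).

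The other 3 of these 6 share some exonic bases with the partner. GABPB1-AS1 had counts of 112.7, 94.5 and 118.7 in Caki2+Vector and of 71.5, 60.4 and 76.4 in Caki2+PBRM1 (log2 fold change -0.64, SE 0.13, limma adjusted p = 5.09e-04). Its partner GABPB1, a subunit of the ETS factor GABP, had a log2 fold change of -0.01 (SE 0.08, limma adjusted p = 0.938). TMEM161B-AS1 had 82.4, 63.3 and 86.3 against 50.9, 52.4 and 53.7 (log2 fold change -0.54, limma adjusted p = 0.0071), and TMEM161B -0.21 (limma adjusted p = 0.119). LPP-AS2 had 32.2, 39.7 and 45.5 against 27.1, 24.0 and 24.3 (log2 fold change -0.61, limma adjusted p = 0.0242), and the adhesion protein LPP 0.08 (limma adjusted p = 0.2). GABPB1-AS1 and TMEM161B-AS1 kept their calls without any 1 library, and LPP-AS2 lost its call without Caki2+PBRM1 B or C or Caki2+Vector B or C (limma adjusted p up to 0.113).

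OIP5-AS1 and KTN1-AS1 fell with their partners. OIP5-AS1, an abundant conserved RNA also called cyrano, had 924.0, 782.3 and 849.8 in Caki2+Vector and 691.1, 723.5 and 668.1 in Caki2+PBRM1 (log2 fold change -0.29, SE 0.06, limma adjusted p = 3.04e-04). OIP5, a centromere protein, fell from 405.2, 380.7 and 397.9 to 316.3, 309.3 and 276.1 (log2 fold change -0.39, limma adjusted p = 1.08e-04). KTN1-AS1 had 62.5, 48.2 and 58.7 against 39.0, 39.1 and 40.3 (log2 fold change -0.50, limma adjusted p = 0.0252), and KTN1, the kinesin-binding protein kinectin, fell by 0.22 on the log2 scale (limma adjusted p = 1.32e-04). The KTN1-AS1 call was lost in 5 of 6 fits without 1 library, all but that without Caki2+Vector B (limma adjusted p up to 0.0883), while OIP5-AS1 kept its call in all 6.

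**Figure D3:**
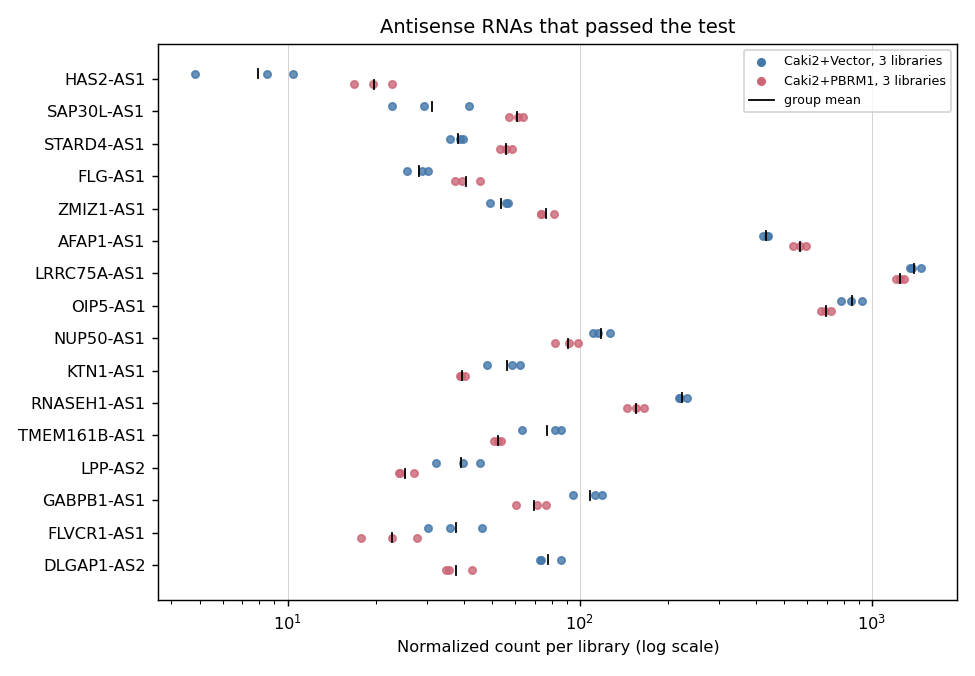
Normalized count in each library (horizontal log axis) for the 16 antisense RNAs that passed the test and did not enter through 1 group alone, Caki2+Vector in blue and Caki2+PBRM1 in red, with a black tick at each group mean. The groups do not overlap for any of the 16, and their levels run from under 10 for HAS2-AS1 in Caki2+Vector to over 1000 for LRRC75A-AS1.

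The most abundant antisense RNA by count was LRRC75A-AS1, known as the snoRNA host SNHG29, with 1348.1, 1472.0 and 1366.4 in Caki2+Vector and 1291.1, 1243.5 and 1208.6 in Caki2+PBRM1. This was a small but separated decrease (log2 fold change -0.16, SE 0.05, limma adjusted p = 0.0104), lost without Caki2+PBRM1 C or Caki2+Vector B (limma adjusted p up to 0.0818). Its partner by name, LRRC75A, rose at low counts, from 16.1, 12.3 and 6.0 to 16.2, 24.0 and 21.8 (log2 fold change 0.88, SE 0.31, limma adjusted p = 0.0349). FGD5-AS1 had 1060.3, 1181.9 and 1135.0 against 1036.6, 1091.5 and 1023.9, with overlapping groups (log2 fold change -0.10, SE 0.05, limma adjusted p = 0.146). Per kb of annotated exon, FGD5-AS1 stood at 180.0 normalized counts, LRRC75A-AS1 at 147.7, AFAP1-AS1 at 41.0 and OIP5-AS1 at 34.6. Here and below, these lengths join the GENCODE exons of all transcripts of a gene, while the reads had been counted on a UCSC annotation. The values per kb are therefore rough and do not rank the RNAs.

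Across all pairs, 185 antisense members had a coding partner that could also be tested. The antisense RNA passed the test in 16 (8.65%) and the partner in 57 (30.8%), against 29.2% of all tested genes. Both passed in the same direction in 6 pairs: SAP30L, FLG, ZMIZ1 and HHIP with their antisense RNAs up, and KTN1 and OIP5 down. HHIP-AS1 entered only through Caki2+PBRM1, and without it 5 pairs remained, 3 of them up. The antisense RNA and its partner went in opposite directions in 2 pairs, AFAP1 and LRRC75A. The antisense RNA alone passed in 8 and the partner alone in 49, of which 26 partners rose and 23 fell. In 120 pairs neither passed. The median antisense RNA had 7.77% of the count of its partner, and 18 had more counts than their partner. For another 15 antisense members the partner was under the level, and for 6 no partner symbol was listed.

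**Figure D4:**
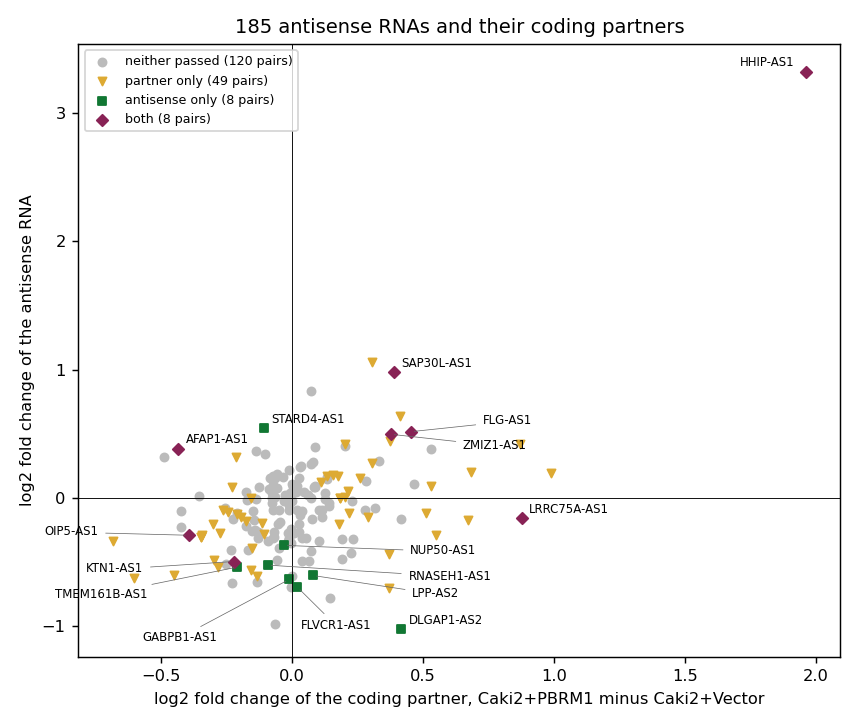
Log2 fold change (Caki2+PBRM1 minus Caki2+Vector) of each antisense RNA (vertical axis) against that of its coding partner (horizontal axis) for 185 pairs, marked by which of them had an adjusted p under 0.05. Of the 8 pairs in which the antisense RNA alone passed, 7 lie below the horizontal zero line.

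In the annotation, exons of the antisense RNA and the partner overlapped in 119 pairs, in 63 they did not, and 3 pairs could not be placed. Of the 6 pairs called in the same direction, 4 had overlapping exons (3 of 5 without HHIP-AS1), as did both pairs called in opposite directions. Among 41 head-to-head pairs with overlapping exons, 3 antisense RNAs passed, all lower, and 13 partners passed. Among 44 head-to-head pairs with exons apart, 1 antisense RNA rose, 3 fell and 12 partners passed. Among 78 pairs with starts over 1 kb apart and overlapping exons, 7 antisense RNAs and 27 partners passed.

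Among the pairs in which the partner alone passed, the partners with the largest changes stood beside antisense RNAs with mostly low counts. MMP24, a membrane-bound matrix metalloproteinase, rose from 78.6, 85.0 and 77.9 to 159.2, 152.9 and 170.4 (log2 fold change 0.99, limma adjusted p = 4.47e-08). MMP24-AS1 had 165.7, 191.8 and 195.4 against 205.8, 213.3 and 211.5, separated between groups but not called (log2 fold change 0.19, SE 0.09, limma adjusted p = 0.111). GENCODE annotates MMP24-AS1 as the coding gene MMP24OS, and 14.6% of its annotated exons overlap MMP24. SERTAD4 rose by 0.87 on the log2 scale, and SERTAD4-AS1 had 31.2, 23.6 and 22.8 against 37.9, 40.9 and 26.9 with overlap (log2 fold change 0.42, SE 0.22, limma adjusted p = 0.148). For TIPARP (log2 fold change 0.68), the integrin ITGB2 (0.67), the melanotransferrin gene MFI2 (-0.68) and the cytokine receptor LIFR (-0.60), the antisense RNAs had mean counts from 8.5 to 17.5, overlapped between groups and had SEs of 0.29 to 0.43. The 95% interval of the log2 fold change held both 0 and the partner's value for TIPARP-AS1 (-0.58 to 0.98), MFI2-AS1 (-0.93 to 0.27) and LIFR-AS1 (-1.51 to 0.25), and held 0 but not the partner's value for ITGB2-AS1 (-0.90 to 0.55).

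Of the 309 members, LINC00942 had the lowest adjusted p. Its counts were 192.2, 192.7 and 215.7 in Caki2+Vector and 300.0, 303.1 and 305.5 in Caki2+PBRM1 (log2 fold change 0.60, SE 0.08, limma adjusted p = 1.11e-06). The exact permutation test of these 6 counts gave p = 0.1, the smallest that 3 against 3 allows, two-sided, so single RNAs cannot pass 0.05 by that test. LINC00942 lies at chr12:1609691-1616484 on the minus strand, 22573 bp from the start of WNT5B, a Wnt ligand and its nearest tested coding gene. WNT5B rose from 7.6, 9.4 and 7.2 to 21.7, 15.1 and 14.3 (log2 fold change 0.98, SE 0.31, limma adjusted p = 0.0182).

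LINC00488 had 300.1, 294.8 and 310.4 in Caki2+Vector and 407.3, 410.6 and 421.3 in Caki2+PBRM1, with the members of each group close together (log2 fold change 0.45, SE 0.07). LINC00094, annotated by GENCODE as the coding gene BRD3OS, had 142.0, 142.7 and 199.0 against 212.3, 246.2 and 212.3 (log2 fold change 0.48, SE 0.11, limma adjusted p = 0.00185). LINC00657, known as NORAD, an RNA that binds Pumilio proteins, had the highest count of all members and 822.6 normalized counts per kb. Its counts were 4153.1, 3992.6 and 4079.9 against 4992.3, 4696.6 and 4741.2 (log2 fold change 0.24, SE 0.04). Though small, the increase of LINC00657 left the groups apart, and all 4 of LINC00942, LINC00488, LINC00094 and LINC00657 kept their calls without any 1 library, with a limma adjusted p of at most 0.0202. LINC00674 had more per kb than LINC00657, at 4176.9, but is annotated with only 160 bp of exon, and this value was not compared further.

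At lower counts, LINC00607 had 7.6, 2.8 and 10.8 in Caki2+Vector and 16.2, 21.3 and 20.1 in Caki2+PBRM1 (log2 fold change 1.47, SE 0.36, limma adjusted p = 0.0025). LINC00460, studied in several carcinomas, had 10.4, 4.7 and 6.0 against 16.2, 19.6 and 15.1 (log2 fold change 1.22, SE 0.33, limma adjusted p = 0.00623). Its nearest tested coding gene, EFNB2, an ephrin ligand whose start lies 161185 bp away, rose from 193.1, 186.1 and 183.4 to 296.8, 301.3 and 271.9 (log2 fold change 0.63, limma adjusted p = 6.64e-07). Both LINC genes kept their calls without any 1 library, but with DESeq2 LINC00460 lost its call (DESeq2 adjusted p = 0.0635) and LINC00607 kept it (0.0199).

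The other LINC genes that rose had limma adjusted p-values of 0.0158 to 0.0429. LINC01094 had 19.9, 18.0 and 18.0 against 23.8, 30.2 and 37.8 (log2 fold change 0.67). LINC00632, whose transcript is the source of the circular RNA CDR1as, had 33.1, 32.1 and 33.6 against 46.6, 43.6 and 52.0 (log2 fold change 0.51). LINC00704, also called MANCR, had 107.9, 106.8 and 122.3 against 150.6, 139.5 and 137.6 (log2 fold change 0.34). LINC00997, LINC00667, LINC00673 and LINC01000 rose by 0.36, 0.25, 0.24 and 0.22 on the log2 scale, LINC01000 being named here after its values were seen because it was the only called member not taken by the naming rule. Each of these 7 separated between groups, but each lost its call without at least 2 of the 6 libraries: LINC01094 without Caki2+PBRM1 B or C or Caki2+Vector B or C (limma adjusted p up to 0.199), LINC00632 without Caki2+PBRM1 A or C or Caki2+Vector B (up to 0.146), LINC00704 without Caki2+PBRM1 A or Caki2+Vector B (up to 0.0797). LINC00997 lost it without Caki2+PBRM1 A or C or Caki2+Vector A (limma adjusted p up to 0.137), LINC00667 without any but Caki2+Vector C (up to 0.118), LINC00673 without Caki2+PBRM1 B or Caki2+Vector B (up to 0.119) and LINC01000 without Caki2+PBRM1 B or C or Caki2+Vector A (up to 0.222).

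LINC00910 fell most among the LINC genes that did not enter through 1 group alone. Its counts were 54.9, 57.6 and 59.9 in Caki2+Vector and 40.1, 24.9 and 30.2 in Caki2+PBRM1 (log2 fold change -0.86, SE 0.19, limma adjusted p = 6.41e-04). LINC00887 had 107.0, 96.4 and 92.3 against 70.4, 72.0 and 55.4 (log2 fold change -0.58, SE 0.14, limma adjusted p = 0.00173). LINC00493, which GENCODE annotates as SMIM26, a small mitochondrial protein, had 339.9, 327.8 and 318.8 against 244.8, 249.8 and 266.1 (log2 fold change -0.37, SE 0.08, limma adjusted p = 2.99e-04). All 3 kept their calls without any 1 library. DTD1, the tested coding gene nearest to LINC00493, fell too, from 715.7, 781.3 and 727.5 to 526.4, 529.7 and 538.8 (log2 fold change -0.48, limma adjusted p = 1.1e-07), its start being 20595 bp away.

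LINC00467 had 81.4, 64.2 and 57.5 in Caki2+Vector and 44.4, 44.4 and 44.5 in Caki2+PBRM1 (log2 fold change -0.58, SE 0.16, limma adjusted p = 0.00672), with the spread all in the first group. LINC00263, known as OLMALINC, had 33.1, 29.3 and 24.0 against 14.1, 16.9 and 21.8 (log2 fold change -0.69, limma adjusted p = 0.0311). LINC00277, known as EWSAT1, had 205.4, 198.4 and 208.5 against 175.5, 168.9 and 158.6 (log2 fold change -0.28, limma adjusted p = 0.0169). LINC00707 fell by 0.27 on the log2 scale (limma adjusted p = 0.0325), and LINC01125, annotated as the coding gene C2orf92, by 0.62 (limma adjusted p = 0.0308) with groups that overlapped. These calls were lost without single libraries: LINC00467 without Caki2+Vector A (limma adjusted p 0.0535), LINC00277 without Caki2+PBRM1 C (0.092), LINC00263 without Caki2+PBRM1 A or B or Caki2+Vector A or B (up to 0.131). LINC00707 lost its call without Caki2+PBRM1 A or C or Caki2+Vector A or B (limma adjusted p up to 0.134), and LINC01125 without Caki2+PBRM1 A or Caki2+Vector A or B (up to 0.225).

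**Figure D5:**
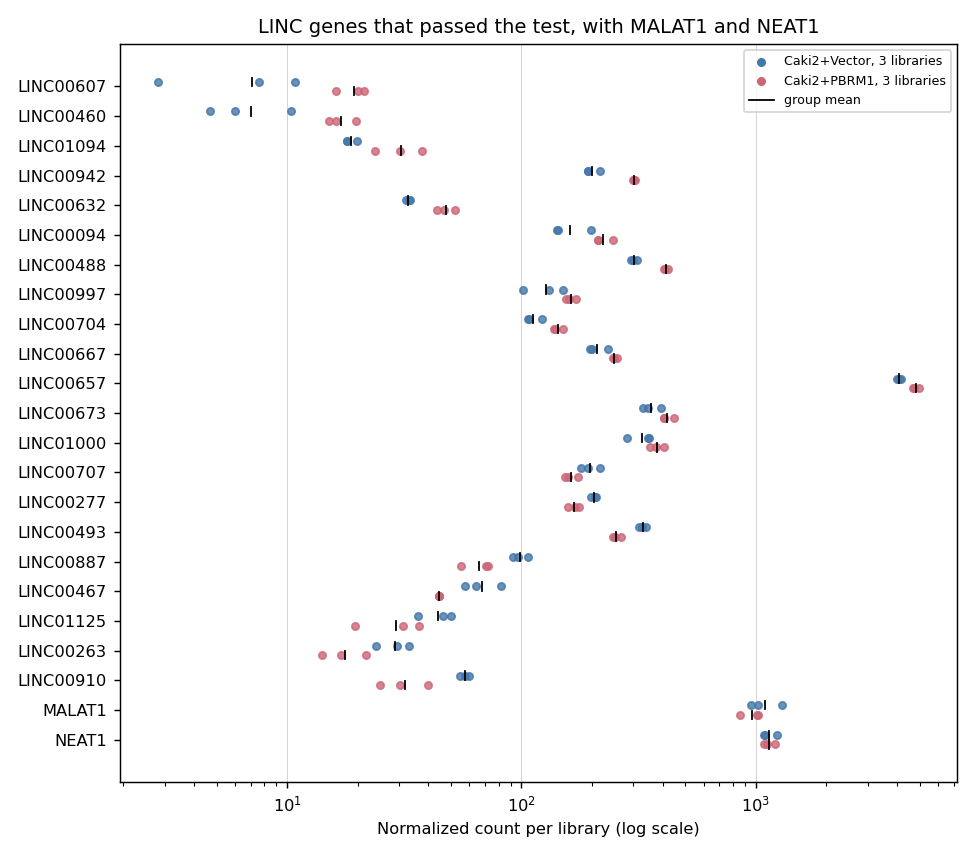
Normalized count in each library (horizontal log axis) for the 21 LINC genes that passed the test and did not enter through 1 group alone, followed by MALAT1 and NEAT1, Caki2+Vector in blue and Caki2+PBRM1 in red, with a black tick at each group mean. The groups overlap for MALAT1, NEAT1 and LINC01125, whose libraries run from 36.0 to 50.2 in Caki2+Vector and from 19.5 to 36.4 in Caki2+PBRM1.

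For 94 LINC members a nearest tested coding gene could be placed, at a median distance of 66369 bp between starts. The LINC gene passed the test in 20 and the neighbour in 39, where 29.2% of all tested genes did. Whether neighbours changed together was not tested. Both passed in the same direction in 5, among them LINC00942 with WNT5B, LINC00460 with EFNB2 and LINC00493 with DTD1, and in opposite directions in 5. In the latter group LINC00704 rose where AKR1E2 fell (log2 fold change -0.46), LINC00657 rose where EPB41L1 fell (-0.29) and LINC00277 fell where GLCE rose (0.26). Only 8 of the 94 neighbours started within 1 kb.

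MALAT1, the abundant RNA of nuclear speckles, did not pass the test. It had 1293.2, 954.2 and 1022.4 in Caki2+Vector and 856.8, 1014.2 and 1025.6 in Caki2+PBRM1 (log2 fold change -0.17, SE 0.12, limma adjusted p = 0.368). The highest value was that of Caki2+Vector A, the library that stood apart. NEAT1, the scaffold of paraspeckles, had 1226.9, 1082.7 and 1099.1 against 1079.9, 1117.3 and 1210.3 (log2 fold change 0.00, SE 0.05, limma adjusted p = 0.999), so that the groups overlapped throughout. LINC00674, the second LINC gene by count, had 680.7, 639.6 and 701.2 against 674.8, 662.2 and 651.3 (log2 fold change -0.02, SE 0.06, limma adjusted p = 0.801).

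H19 and MEG3, imprinted RNAs active in fetal tissue, were not members at this level of expression. H19 had normalized counts of 10.4, 9.4 and 14.4 in Caki2+Vector and of 3.2, 1.8 and 5.9 in Caki2+PBRM1. In all this was 33 reads against 12, a ratio of 0.331 once scaled for library size, with an exact 95% interval of 0.156 to 0.658 that covers counting error only. MEG3 had 0 reads in all 6 libraries, which over the 25831437 reads of Caki2+Vector and the 29471599 of Caki2+PBRM1 allows up to 3 reads a group. Of 7 imprinted neighbours of H19 and MEG3, DLK1, RTL1 and MEG8 were at 0 in every library, and neither of the 2 that could be tested passed.

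Of the 309 members, 6 passed the level only because the 3 libraries of 1 group were at 10 or more, so their groups had to differ and no count over them supports anything. HHIP-AS1 had 0.0, 2.8 and 0.0 in Caki2+Vector and 20.6, 10.7 and 14.3 in Caki2+PBRM1, from 3 reads in all against 48. HHIP, which binds and restrains Hedgehog ligands, had 7.6, 2.8 and 7.2 against 16.2, 29.3 and 29.4, and 34.0% of the annotated exons of HHIP-AS1 overlap it. LINC00634, annotated as the coding gene SMIM45, had 17.0, 12.3 and 18.0 against 5.4, 5.3 and 5.9. NAPA-AS1, SLFNL1-AS1 and YTHDF3-AS1 had means of 14.9, 15.1 and 13.9 in Caki2+Vector against 8.2 for each in Caki2+PBRM1, SEPSECS-AS1 had 7.1 against 13.5, and these 4 did not pass the test. Without these 6, the counts of calls were 19 up and 18 down.

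Besides the lncRNAs chosen by symbol, the proteins that share structures with MALAT1 and NEAT1 were read from the same fit. Over all tested genes, 16.2% rose and 13.0% fell. Of 21 paraspeckle proteins, FAM98A rose (log2 fold change 0.33) and EWSR1 fell (-0.16), with a list median of -0.01. Of 15 nuclear speckle and MALAT1-binding proteins, none rose, and the splicing factors SRSF1, SRSF2 and SRSF7 and the RNA-binding protein HNRNPC fell, by 0.13 to 0.21 on the log2 scale. Among all tested genes with a mean of 200 or more, 16.7% fell. Of 21 tested snoRNA host genes, whose introns release small nucleolar RNAs, 10 fell and 1 rose, with a list median of -0.21, where 13.0% of all tested genes fell; the list was not chosen independently of these data. SNHG18 rose, with 36.0, 29.3 and 34.8 in Caki2+Vector and 62.8, 56.9 and 60.4 in Caki2+PBRM1 (log2 fold change 0.83). SNHG3 had 207.3, 250.4 and 234.9 against 179.8, 176.0 and 166.2 (log2 fold change -0.40), and SNHG20, SNHG4, GAS5 and SNHG15 fell by 0.50, 0.36, 0.36 and 0.32 on the log2 scale.

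A last list held 31 other lncRNAs with names of their own, of which 18 could be tested under those names. Of these 18, 1 rose and 3 fell, where 16.2% and 13.0% of all tested genes did. MIR210HG, the host of a hypoxia-responsive microRNA, rose (log2 fold change 0.39), and LUCAT1 (-0.41), CCAT1 (-0.22) and MIR17HG (-0.58) fell. The list median was -0.06. LUCAT1 had 457.2, 408.1 and 432.7 in Caki2+Vector and 321.7, 305.8 and 350.0 in Caki2+PBRM1 without overlap.

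Annotation on GRCh37 was found for 299 of the 309 members. GENCODE types 10 of them as protein-coding, of which LINC00094 rose and LINC00493, LINC00634 and LINC01125 fell. These 4 values therefore describe RNAs that current annotation does not call noncoding.

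The number of calls depended on the test and on single libraries. DESeq2 on recovered reads called 9 lncRNAs up and 11 down, all 20 of them among the 39 above, and 11.2% and 7.95% of all tested genes. The 19 calls lost were those of FLG-AS1, FLVCR1-AS1, KTN1-AS1, LPP-AS2, NUP50-AS1, STARD4-AS1, ZMIZ1-AS1, LINC00263, LINC00277, LINC00460, LINC00632, LINC00667, LINC00673, LINC00704, LINC00707, LINC00997, LINC01000, LINC01094 and LINC01125 (DESeq2 adjusted p of 0.0611 to 0.201). By edgeR 20 were up and 25 down, where 16.5% and 13.8% of all tested genes were. Quantile normalization turned the split to 17 up and 30 down, against 14.6% and 15.7% of all tested genes. Without Caki2+PBRM1 C, 12 rose and 15 fell, and the pairs called in the same direction went from 6 to 3. For this smaller fit the share of all tested genes was not set beside the counts, so they do not single out the lncRNAs.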

How the data were processed

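Poly(A)-enriched RNA of 3 Caki2+Vector and 3 Caki2+PBRM1 samples was sequenced. The authors removed adapter, poor-quality and rRNA reads, aligned the rest to hg19 with STAR, counted reads per gene with htseq-count and normalized with DESeq2; whether strand was kept is not given in the sources used here. The deposited signal is a normalized count per gene, the number of reads divided by a size factor per sample. All values were whole reads when multiplied by a size factor of 0.8343 to 1.1915 (100% within 0.01), so reads were recovered for the count models.

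Groups and replicate letters came from the labels. The 13303 genes with at least 10 normalized counts in at least 3 libraries were fitted with limma 3.58.1 (R 4.3.3; trend and robust empirical Bayes) on log2(normalized count + 1), two-sided, with Benjamini-Hochberg adjustment and a threshold of 0.05. A log2 fold change on this scale understates the change of low genes. SE is limma's moderated standard error. The fit was tested on simulated data. Members and lists were chosen with earlier results of these data known. Named members were MALAT1, NEAT1, H19 and MEG3, the up to 8 antisense and LINC genes of largest change in each direction that passed without overlap and whose higher group averaged 20 or more, the 4 most abundant of each class, members that passed through 1 group, up to 6 whose partner passed, and up to 6 others by adjusted p. A partner is the symbol without its -AS ending. GENCODE on GRCh37 gave positions. Exact permutation tests were two-sided.

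The alternatives were edgeR 4.0.16 quasi-likelihood, DESeq2 1.42.0 and limma voom on recovered reads, TMM and quantile scaling, pseudocounts of 0.5 and 4, other filters, an adjusted p under 0.01, the replicate letter as a block, and leaving out each library. Same-lettered libraries of the groups did not deviate together (r of -0.008 to 0.014).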

Additional observations from a re-analysis of the deposited data

How the results depend on the processing

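With the test as given, 20 lncRNAs rose, 19 fell and 6 antisense and partner pairs passed in the same direction. DESeq2 on recovered reads gave 9, 11 and 3; all 20 of its calls were among the 39. Quantile normalization gave 30 lower, and an adjusted p under 0.01 gave 11 higher and 10 lower. Leaving out 1 library gave 12 to 21 higher, 15 to 21 lower and 3 to 7 pairs, the lowest number higher and the fewest pairs without Caki2+PBRM1 C. For the stricter threshold and for the fits without 1 library, the shares of all tested genes were not set beside these counts. With the replicate block, 21 rose, 21 fell and 6 pairs passed; since the letters did not pair the libraries (r of -0.008, 0.006 and 0.014), this is a check only. edgeR, voom, TMM scaling, other pseudocounts and other filters stayed within 1.5 times, at 16 to 20 higher, 19 to 25 lower and 5 to 7 pairs. Of 869 log2 fold changes of the 52 named members under these alternatives, 783 kept their side of the threshold, 78 lost the call and 8 gained it. None was called in the opposite direction. In all these fits at the threshold of 0.05, 6 lncRNAs were called up (AFAP1-AS1, LINC00094, LINC00488, LINC00657, LINC00942 and SAP30L-AS1) and 8 down (DLGAP1-AS2, GABPB1-AS1, LINC00493, LINC00887, LINC00910, OIP5-AS1, RNASEH1-AS1 and TMEM161B-AS1). The cause of the lower count with DESeq2 was not tested. Under a mean of 50 the median SE of the lncRNAs was 0.27, and whether depth accounts for their share of calls was not tested.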
